A study of Mus musculus with 17 samples.

Results

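The sham samples of this series, 8 pools of kidney RNA taken after sham surgery (days 1, 3, 5 and 7, then days 10, 14, 21 and 30), were compared with the naive sample, a pool of kidneys from untreated mice. They were chosen by their labels and make up 9 of the 17 samples. The other 8 samples are pools taken on the same days after ischemia reperfusion injury (IRI), that is 30 minutes of warm ischemia, and their values are set beside those of sham. All mice were C57/BL6, aged 10 to 12 weeks, and each pool held 3 mice. The labels describe the mice as female and the study's methods as male. The comparison asks how far the microRNA (miR) levels of a sham-operated kidney lie from those of a kidney that had no surgery. All 569 mature mouse miRs on the array were examined. Each day after sham is a single pool, and naive is a single pool that was read in another dye. RNA of the naive sample was labelled with Cy3 and hybridised alone, and RNA of each sham sample was labelled with Cy5 and hybridised with the IRI sample of its day. Sham surgery, dye and array therefore cannot be told apart in any difference between sham and naive.

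A miR is a short RNA that guides an Argonaute protein to messenger RNAs and lowers their translation or stability. Pairing runs mainly through the seed, the bases near its 5′ end, so that miRs with the same seed form a family with largely shared targets. In the kidney, miR-192 and miR-194 and members of the miR-30 and miR-200 families are known from the tubule epithelium, whereas miR-126 marks endothelium and miR-143 and miR-145 mark smooth muscle. In pooled tissue, fewer cells of a type and less of a miR per cell cannot be told apart.

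Of the 65 miRs that were measured in naive and in every sham sample, 52 matched a mature sequence of RefSeq. They include 12 of the 14 miRs called higher in sham and 4 of the 8 called lower. The sequences of those with the largest differences are shown to make their families visible, 5′ to 3′, with the seed (bases 2 to 8) in capitals and positions on GRCm38.p6.
The miRs higher in sham, by family, began with the miR-10 pair, encoded at chr11:96317186-96317208 (plus strand) and chr2:74726074-74726096 (plus strand), which differ by U12A, counted from the 5′ end with the base of miR-10a first.
miR-10a: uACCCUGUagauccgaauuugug
miR-10b: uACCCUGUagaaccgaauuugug
miR-196a, whose gene copies lie at chr11:96265187-96265208 (plus strand) and chr15:102973365-102973386 (plus strand), has another seed.
miR-196a: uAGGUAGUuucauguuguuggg
The miR-23 and miR-27 families come from shared clusters. miR-23a lies at chr8:84208563-84208583, miR-27a at chr8:84208727-84208747 and miR-27b at chr13:63300760-63300780, all on the plus strand. The miR-27 pair differ by C19U, with the base of miR-27a first.
miR-23a: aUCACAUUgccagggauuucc
miR-27a: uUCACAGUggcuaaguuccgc
miR-27b: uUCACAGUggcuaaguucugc
miR-26b, at chr1:74394324-74394344 (plus strand), had the highest ratio and is shown with miR-26a, its only relative here, from which it differs by C11U and C21U (the base of miR-26a first) and by its length of 21 bases against 22. miR-26a is encoded at chr9:119031811-119031832 (plus strand) and chr10:126995543-126995564 (plus strand).
miR-26b: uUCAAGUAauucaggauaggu
miR-26a: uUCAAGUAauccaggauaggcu
miR-30a, at chr1:23272274-23272295 (plus strand), and miR-30c, at chr1:23291714-23291736 (plus strand) and chr4:120769584-120769606 (minus strand), stand for the miR-30 family, and miR-200a, at chr4:156054911-156054932, and miR-429, at chr4:156053916-156053937, both on the minus strand, for the miR-200 family, whose members fall under 2 different seeds.
miR-30a: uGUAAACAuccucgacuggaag
miR-30c: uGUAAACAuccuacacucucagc
miR-200a: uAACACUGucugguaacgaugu
miR-429: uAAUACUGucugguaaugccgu
Members of the let-7 family share 1 seed and lay on different sides of naive. let-7g, at chr9:106178846-106178867 (plus strand), was called higher and let-7a, at chr13:48538239-48538260 (minus strand), was not.
let-7g: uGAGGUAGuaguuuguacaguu
let-7a: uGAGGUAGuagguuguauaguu
let-7b: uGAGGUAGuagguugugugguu
let-7c: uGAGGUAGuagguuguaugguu
let-7f: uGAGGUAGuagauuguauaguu
The 4 sequences shown of miRs lower in sham share no seed. miR-705 lies at chr6:85336341-85336360 (minus strand), miR-690 at chr16:28599940-28599961 (minus strand), miR-191 at chr9:108568325-108568347 (plus strand) and miR-22 at chr11:75463772-75463793 (plus strand).
miR-705: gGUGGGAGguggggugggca
miR-690: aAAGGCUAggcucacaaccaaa
miR-191: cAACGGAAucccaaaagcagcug
miR-22: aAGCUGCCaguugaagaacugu
miR-378, miR-320, miR-185 and miR-720 were also lower.

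The naive array was the weakest by its signal. Processed values are on the linear scale of the authors' table. The median scanner intensity of the empty spots was 510.9 on the naive array and 33.0 to 43.9 in the 7 sham channels whose scanner values were used. In the 7 IRI channels used, read in Cy3 as naive was, it was 185.5 to 515.9. The median signal over background of the measured miRs was 212 in naive, 632 to 1645 in sham and 2176 to 4757 in IRI. The 6 spots of a miR differed by a median coefficient of variation of 14.8% in naive, 6.27% to 10.4% in sham and 5.04% to 17.6% in IRI. The processed value was 7.87 times the scanner signal over background at the median miR in naive, with a range from 3.14 to 13.1 between the 5th and the 95th percentile of miRs, and 0.782 to 3.30 times at the median in sham, highest on day 10. The 5 probes for 5S ribosomal RNA, which are no miRs, were lower in sham by a mean log2 ratio between -4.71 and -1.82. The part of these differences in the ratios was not tested.

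At a floor of 200 and above the empty spots, 76 miRs were measured in naive and 82 to 88 in each sham sample. Of the 569, 65 (11.4%) were measured in naive and in all 8 sham samples. Another 11 were measured in naive and in some sham samples, 2 in all 8 sham samples and not in naive, 27 in some sham samples and not in naive, 0 in naive alone, and 464 in none of the 9 samples. All ratios that follow are over the 65 unless another count is given.

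The mean log2 ratio of sham to naive over the 8 days was above 0 for 33 miRs and below 0 for 32, with a median of 0.03 and a range from -3.06 to 2.56. The median depends on the scaling of the arrays, and was -0.34 from the scanner values with background subtracted and 0.25 with loess and quantile normalization. A miR was called higher or lower, without a test, when its mean log2 ratio was at least 1 in size and all 8 days lay on the same side of naive. By this rule 14 miRs were higher (21.5%) and 8 were lower (12.3%). On all 8 days 22 miRs lay above naive (33.8%) and 15 below (23.1%), and 28 lay on both sides. From the scanner intensities with plain background subtraction, without day 5, the split was 14 higher and 18 lower of 65 measured miRs. These 14 held 10 of the 14 called from the processed values, without miR-27a, miR-27b, miR-30a and miR-429, and the 18 held all 8. With loess and quantile normalization, also without day 5, the split was 17 higher and 12 lower of 69 measured miRs, holding 11 of the 14 and all 8. The median size of the mean ratio was 0.84, the median SD over the 8 days was 0.48, and the jackknife SE over the naive spots had a median of 0.09 and was at most 0.25 on the log2 scale. The spot SE does not hold the spread between mice. Without 1 sham day at a time, 12 to 14 of those higher and all 8 of those lower were still called. miR-27b, miR-30c and miR-23b were the ones lost.

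**Figure D1:**
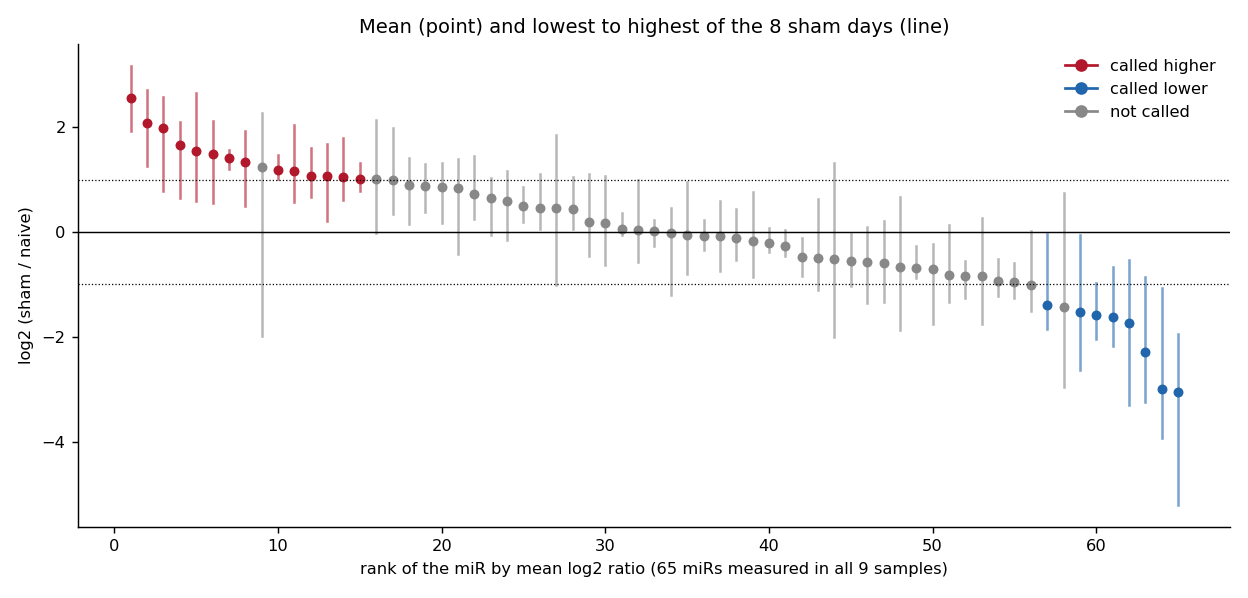
Mean log2 ratio of sham to naive (points) with the lowest and highest of the 8 sham days (lines) for the 65 miRs measured in all 9 samples, in order of the mean. The 14 miRs called higher and the 8 called lower have all 8 days on the same side of naive, and dotted lines mark a log2 ratio of 1 and -1.

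The miRs encoded in the Hox clusters, which lie between genes that pattern the body axis and the embryonic kidney, were higher in sham. All 3 measured members of the 4 listed were called higher, against 21.5% of the 65, with a median log2 ratio of 1.66 against 0.03. Of these, miR-10a and miR-10b differ by 1 base, and signal shared between their probes was not tested. miR-10a was at 1183 in naive and at 2819, 5373 and 7773 in the lowest, median and highest sham sample, so that every sham day was above naive. Its mean log2 ratio was 2.08 ± 0.54 (SD, n = 8 days), or 4.24-fold, and its mean in IRI was 2.69. miR-10b was at 2786 in naive and between 3914 and 10656 in sham (median 7637), a mean log2 ratio of 1.34 ± 0.52 (SD, n = 8 days), with IRI at 1.77. Days 10 and 30 were the nearest to naive for both members of the pair. miR-196a was at 835 in naive and at 1312, 2960.5 and 3576 in sham, a mean log2 ratio of 1.66 ± 0.48 (SD, n = 8 days), and at 1.70 in IRI. Day 7 was its lowest sham day and day 21 its highest. Over the scalings the mean log2 ratio ran from 2.03 to 3.10 for miR-10a, from 1.29 to 1.94 for miR-10b and from 1.31 to 2.43 for miR-196a.

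miR-26b had the highest ratio of the 65. It was at 1733 in naive and at 6639, 10214.5 and 15596 in the lowest, median and highest sham sample. The lowest sham day, day 30, was still above naive, and the mean log2 ratio was 2.56 ± 0.45 (SD, n = 8 days), or 5.90-fold, beside 2.84 in IRI. Over the scalings it ran from 2.32 to 3.54, the latter with loess and quantile normalization of the scanner values. miR-26a, with the same seed, was at 13328 in naive and between 11973 and 29715 in sham, a mean log2 ratio of 0.60 ± 0.38 (SD, n = 8 days) with 7 of 8 days above naive.

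The miR-23 and miR-27 families, known from endothelial and muscle biology, were higher, and miR-24 of the same clusters was not. Of the 5 measured members 4 were called higher, against 21.5% of the 65, with a median of 1.06 against 0.03. miR-23a and miR-23b differ by 1 base, as do miR-27a and miR-27b, and signal shared between their probes was not tested. miR-27a was at 451 in naive and at 662, 1267 and 1947 in sham, a mean log2 ratio of 1.48 ± 0.55 (SD, n = 8 days), with IRI at 2.24. Its ratio was 0.55 with background subtracted, where the call was lost, and it had no value with loess and quantile normalization. miR-23a, miR-23b and miR-27b followed at 1.16 (1.00 to 1.81 over the scalings), 1.06 (0.74 to 1.44) and 1.02 (0.87 to 1.14). miR-23b lost the call with either quantile normalization, with the median over days and without day 14 or day 21, and miR-27b with background subtracted, with centring and without any 1 of days 3, 7, 10 and 14. miR-24 was at 4925 in naive and between 1957 and 5423 in sham, with 7 of 8 days below naive and a mean log2 ratio of -0.82 ± 0.48 (SD, n = 8 days), and -0.31 with background subtracted. Its ratio was below 0 and theirs above 0 under each of the 4 other scalings that gave a value.

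**Figure D2:**
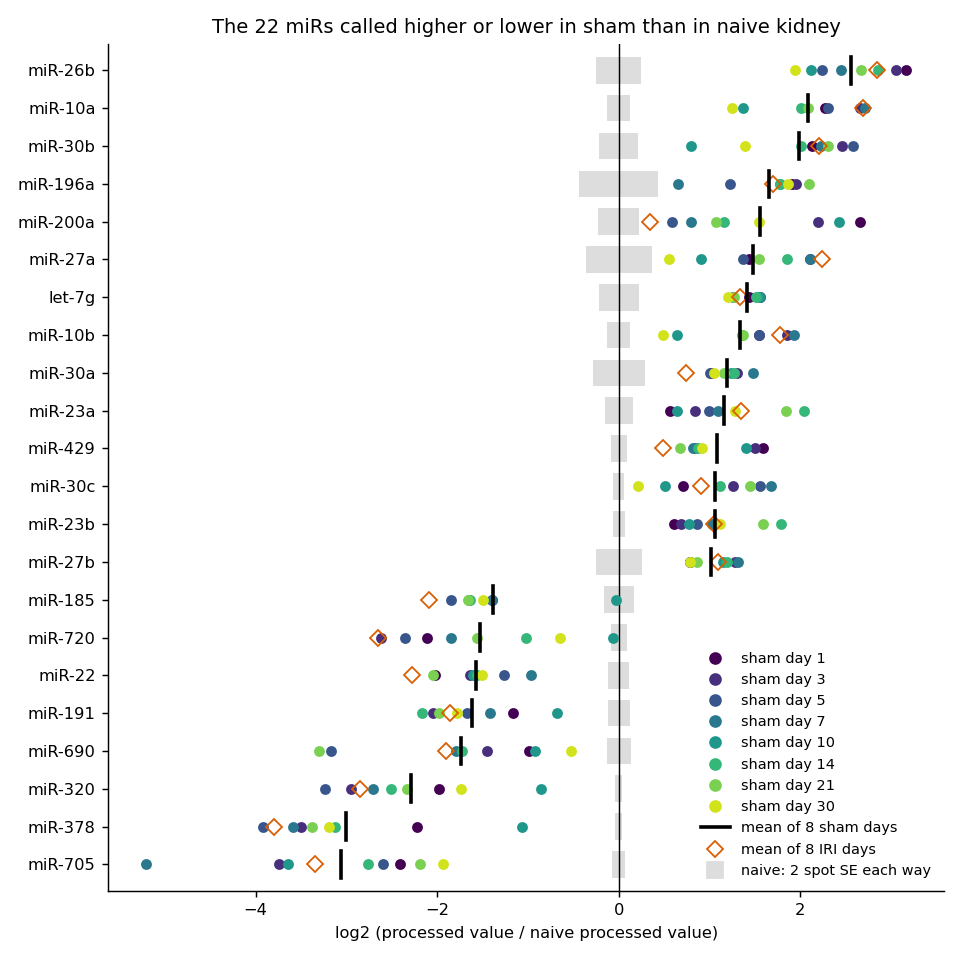
Log2 ratio to naive of each sham day (coloured points), the mean of the 8 sham days (black bars) and the mean of the 8 IRI days (open diamonds) for the 22 called miRs. Grey bars span 2 naive spot SE each way around naive, and day 10 of miR-185 (-0.028) and of miR-720 (-0.07) are the sham points nearest to naive.

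The miR-30 family, abundant in nephron epithelium, had 5 of its 7 listed members measured, of which 3 were called higher, against 21.5% of the 65, with a median log2 ratio of 1.06 against 0.03. miR-30b was at 1228 in naive and at 2127, 5549 and 7362 in sham, a mean log2 ratio of 1.99 ± 0.60 (SD, n = 8 days), with IRI at 2.20. miR-30a varied little between days and was at 1.19 ± 0.16 (SD, n = 8 days), from 1223 in naive to between 2464 and 3406 in sham. With background subtracted it was at 0.87 and lost the call. miR-30c was at 1.06 and ran from 5115 on day 30 to 14121 on day 7, against 4409 in naive. It lost the call from the scanner values with loess and quantile normalization (0.88) and after quantile normalization of the processed values (0.76). miR-30e, at 504 in naive, had a mean log2 ratio of 0.73 that turned to -0.61 in the scanner values with background subtracted. miR-30d differed least, at -0.07 ± 0.18 (SD, n = 8 days), with 4 days on each side of naive.

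The miR-200 family, which maintains the epithelial state by lowering the repressors ZEB1 and ZEB2, had 4 of 5 members measured, 2 of them called higher, against 21.5% of the 65, with a median of 0.79 against 0.03. miR-200a was at 889 in naive and at 1332, 2291.5 and 5594 in sham, a mean log2 ratio of 1.55 ± 0.78 (SD, n = 8 days), or 2.94-fold. Its days spread widely, with days 1, 3 and 10 at 5594, 4081 and 4764 and day 5 lowest, and IRI stood at 0.35 with 4 of 8 days above naive. miR-429 was at 1.08 ± 0.36 (SD, n = 8 days) in sham and 0.49 in IRI, and lost the call with background subtracted (0.42) and with the median over days. miR-200b was at 0.49 with all 8 days above naive, and miR-200c, which is encoded apart from them, at -0.27 with 1 of 8 days above.

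In the processed values the largest ratios in size were among the miRs lower in sham. From the scanner values with loess and quantile normalization the largest was miR-26b at 3.54, beside miR-378 at -3.14 and miR-705 at -2.72. miR-705 was at 10700 in naive and at 290, 1672.5 and 2787 in the lowest, median and highest sham sample. All sham days were below naive, the lowest on day 7, and the mean log2 ratio was -3.06 ± 1.08 (SD, n = 8 days), or 8.34-fold lower, beside -3.34 in IRI. miR-378, which is encoded within the gene of the metabolic coactivator PGC-1β, was at 4957 in naive and at 327, 509 and 2361 in sham. Its mean log2 ratio was -3.00 ± 0.92 (SD, n = 8 days), or 8.01-fold lower, with IRI at -3.80. miR-320 was at 9851 in naive and at 1043, 1841.5 and 5419 in sham, a mean log2 ratio of -2.29 ± 0.76 (SD, n = 8 days), with IRI at -2.85. Its ratio in sham ran from -2.48 to -1.68 over the scalings. All 8 sham days were below naive for each of these, as the rule of the call requires. Of the 65 miRs, 15 (23.1%) lay below naive on all 8 days.

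miR-690 was at 3340 in naive and at 338, 1117 and 2318 in sham, a mean log2 ratio of -1.73 ± 1.02 (SD, n = 8 days). miR-191 was at 7884 in naive and at 1754, 2378 and 4937 in sham, at -1.61 ± 0.50 (SD, n = 8 days), and at -1.06 with background subtracted. miR-22 had the tightest spread of the 8 and was at 1652 in naive and at 400, 551 and 843 in sham, a mean log2 ratio of -1.58 ± 0.36 (SD, n = 8 days), and at -2.57 with background subtracted. miR-720, which later annotation treats as a fragment of a transfer RNA, was at 2386 in naive and at 387, 734.5 and 2280 in sham, at -1.53 ± 0.89 (SD, n = 8 days). miR-185 was at 2417 in naive and at 672, 815.5 and 2370 in sham, at -1.39 ± 0.57 (SD, n = 8 days). IRI stood at -1.91 for miR-690, -1.86 for miR-191, -2.28 for miR-22, -2.65 for miR-720 and -2.09 for miR-185. Both comparisons share the naive sample, so their values are set side by side only. The sham day nearest to naive was day 10 for 5 of these 8 miRs and day 30 for 2, and on day 10 the values of miR-185 and miR-720 were within 2 naive spot SE of naive. At a floor of 400, miR-378, miR-690, miR-705 and miR-720 were no longer measured in every sample.

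The let-7 family is known for restraining growth and cell cycle genes, and the ratios of several members depended on the processing. All 9 members were measured and 1 was called higher, against 21.5% of the 65, with a median log2 ratio of -0.21 that became 0.96 from the scanner values with loess and quantile normalization, -0.51 with background subtracted and 0.11 with quantile normalization of the processed values. let-7g was at 5487 in naive and at 12632, 15259 and 16149 in sham. Its 8 days lay close together and well above naive, and the mean log2 ratio was 1.42 ± 0.15 (SD, n = 8 days), or 2.67-fold, with 1.03 to 1.49 over the scalings. let-7a was at 64839 in naive and between 35479 and 53619 in sham, so that every sham day was below naive. Its mean log2 ratio of -0.69 ± 0.20 (SD, n = 8 days) was 0.99 from the scanner values with loess and quantile normalization and -1.42 with background subtracted.

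let-7b and let-7c, at 70199 and 74203 in naive, had mean log2 ratios of -0.95 and -0.93 and changed sign in the same way, to 0.54 and 0.62. let-7b differs from let-7a by A17G and A19G, let-7c by A19G, let-7f by G12A and let-7g by G12U and U18C, each with the base of let-7a first. let-7f was at 35935 in naive and between 34360 and 46536 in sham, at 0.06. The 9 members thus ran from -0.95 to 1.42 with the same seed, and for let-7a, let-7b, let-7c, let-7d and let-7f the sign depended on the scaling. miR-98, the member that differs from let-7a by G11A and A19U, was at 1302 in naive. Its sham values ran from 328 on day 10 and 1168 on day 7, both below naive, to 6285 on day 3, and it was not called at a mean log2 ratio of 1.24 ± 1.53 (SD, n = 8 days), or 1.19 to 2.72 over the scalings. Of the 43 miRs not called, 20 had a different sign under at least 1 of the 4 other scalings. Of the 22 called, 0 did in a scaling that gave a value. The called were chosen for a ratio of at least 1 in size, so this contrast follows in part from the choice. The median ratio from the scanner values was 0.25 with loess and quantile normalization, over 64 of the 65, and -0.34 with background subtracted.

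**Figure D3:**
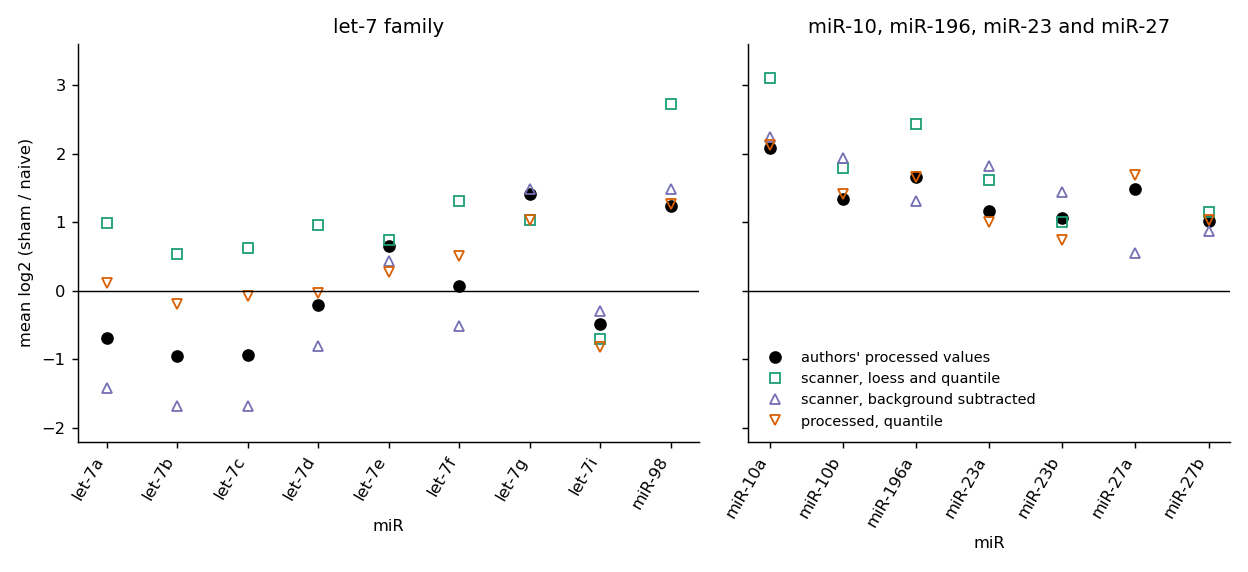
Mean log2 ratio of sham to naive from the authors' processed values (black points) and under 3 other scalings (open symbols), for the let-7 family (left) and for the miR-10, miR-196, miR-23 and miR-27 families (right). let-7a, let-7b, let-7c, let-7d and let-7f fall on both sides of 0, and every member on the right stays above 0.

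The remaining lists held no called member, with few members measured in each and 21.5% called higher and 12.3% lower over the 65. Of the tubule list, which is miR-192, miR-194, miR-204, miR-211 and miR-215, 2 of 5 were measured. miR-192 was at 10442 in naive and at 4343, 5920 and 7150 in sham, so that all 8 days were below naive, with a mean log2 ratio of -0.83 ± 0.25 (SD, n = 8 days), or -1.33 to -0.39 over the scalings, beside -1.79 in IRI. miR-194, encoded in clusters with miR-192 and miR-215, was at 1340 in naive and at 1388, 1747.5 and 2895 in sham, at 0.46 ± 0.33 (SD, n = 8 days), and at -0.21 with background subtracted. miR-204, a marker of tubule and other epithelia, was under the floor in all 9 samples, at 13 in naive and at most 24 in sham.

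miR-126-3p, which marks endothelium, was at 4034 in naive and between 4514 and 10811 in sham, with all 8 days above naive and a mean log2 ratio of 0.89 ± 0.42 (SD, n = 8 days), or 0.61 to 1.50 over the scalings. The smooth muscle miRs had a median of -0.76, with miR-143 at -1.01 ± 0.49 (SD, n = 8 days). It was below naive on 7 days and at 3649 against 3589 in naive on day 10. The fibroblast list had 2 of 4 members measured. miR-199a-3p was at -0.71 ± 0.50 (SD, n = 8 days) with all 8 days below naive and IRI at 1.12, and miR-214 was at -0.66 with days on both sides. The 3 measured members of the miR-15 and miR-16 family had a median of 0.03, from miR-16 at 0.03 to miR-15b at 0.84 (0.18 to 1.44 over the scalings), and the median of the family ran from -0.08 after quantile normalization of the processed values to 0.34 from the scanner values with loess and quantile normalization. The 2 of the miR-17-92 group were at -0.01 (miR-92a, which ran from -1.03 to 0.04 over the scalings) and -0.57 (miR-25, from -1.74 to -0.43), miR-29a was at -0.08 (-0.40 to 0.49), and the 3 of the miR-99, miR-100 and miR-125 family had a median of -0.11 (-0.55 to 0.10), with miR-125a-5p at 1.01 ± 0.72 (SD, n = 8 days) and 7 of 8 days above naive.

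Of the 12 stress and injury miRs, 4 were measured and 0 called, against 21.5% higher and 12.3% lower of the 65, with a median of 0.53 that was -0.93 with background subtracted. miR-21, which rises in many injured tissues, was at 2217 in naive and at 2816, 3965.5 and 8829 in sham. All 8 days were above naive, highest on days 3 and 7, and its mean log2 ratio of 1.00 ± 0.64 (SD, n = 8 days) lay just under the limit of the call, beside 3.71 in IRI. It was over 1 from the scanner values, at 1.14 with loess and quantile normalization and 1.23 with background subtracted. It was also over 1, with all remaining days above naive, when any 1 of days 1, 10, 14, 21 and 30 was left out, so that the count of 0 called depends on the scaling and on the days. miR-146a, induced by inflammatory signalling, was at 629 in naive and at 307, 444.5 and 612 in sham, at -0.55 ± 0.31 (SD, n = 8 days) with all days below naive, and at 0.84 in IRI. With background subtracted its ratio in sham was -1.66. miR-221 was at 0.87 with all 8 days above naive, and at -1.10 with background subtracted. The study names 9 miRs as different between IRI and sham, a choice made on these samples. Of them 7 were measured here and 0 were called, against 21.5% higher and 12.3% lower of the 65, with a median of -0.55. miR-805 was at 8086 in naive and between 9151 and 20212 in sham, at 0.86 ± 0.34 (SD, n = 8 days), and at -0.84 in IRI.

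The miRs nearest to naive were let-7f, miR-30d, miR-16 and let-7d, with a mean absolute log2 ratio of 0.13, 0.14, 0.17 and 0.22. miR-16, which is present in most cells, was at 6237 in naive and between 5206 and 7328 in sham. miR-30d was at 2345 in naive and between 1843 and 2759 in sham. Sham lay on both sides of naive for each of them. This order holds for the processed values, since from the scanner values let-7f was at 1.30 and let-7d at 0.96 with loess and quantile normalization, and at -0.51 and -0.80 with background subtracted.

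Among the miRs measured on 1 side only, 2 were in every sham sample and under the floor in naive. miR-15a, of the miR-16 family, was at 173 in naive and at 227, 609.5 and 1564 in sham, a mean over the 8 days at least 2.80-fold higher than naive, taken at the floor of 200. miR-455 was at 126 in naive and at 282, 392.5 and 946 in sham, by the same mean at least 2.13-fold higher. Both bounds are from the processed values alone, and are not the least difference under every scaling. No miR was measured in naive and in 0 sham samples. miR-29c was measured in 7 of 8 sham samples, between 199 and 1533 with a median of 722.5, against 194 in naive. Of those measured in naive and in some sham samples, miR-574-5p was at 1399 in naive and ranged from 37 on day 7 to 1110 on day 1, and miR-466f-3p at 845 in naive and from 25 on day 7 to 1357 on day 1. Days 1, 5 and 10 were the highest sham days of both.

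The distance of a sham day from naive, as the root mean square log2 ratio over the 65 miRs, was 1.30, 1.50, 1.38 and 1.42 on the first 4 days sampled (days 1 to 7), 1.07 on day 10, 1.24 and 1.29 on days 14 and 21, and 1.03 on day 30. Days 10 and 30, the nearest to naive, were also the sham channels with the lowest median signal over background (643 and 632, against 891 to 1645 on the other days with scanner values) and the highest median ratio of processed value to signal (3.30 and 2.46), and the part of this in the distances was not tested. Each sham day was 0.34 (day 14) to 0.94 (day 10) from the mean of the other 7 sham days, whereas naive was 1.17 from the mean of the 8. Over the 8 days the distance had a Pearson correlation of -0.56 with log2(day) (exact permutation p = 0.144, two-sided, n = 8) and a Spearman rho of -0.74 (exact permutation p = 0.0458, Benjamini-Hochberg adjusted p = 0.0917 over the 2 tests, n = 8). Without days 1 and 30 the Pearson correlation was -0.65 (exact permutation p = 0.156, n = 6). Neither relation passed the threshold after adjustment, and the outcome turned on single days, since the Pearson correlation was -0.78 without day 1 (exact permutation p = 0.0401, n = 7) and -0.37 without day 30 (exact permutation p = 0.424, n = 7), both unadjusted. All days are measured from the same naive sample.

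With time after sham surgery, 2 of 90 miRs moved past the threshold in the fit of log2 sham level on log2(day), which uses no naive value. miR-145, which marks smooth muscle, rose (1.11% of the miRs tested) and miR-195, of the miR-15 and miR-16 family, fell (1.11%), and 12 miRs had an unadjusted p under 0.05. In the order of the days, from day 1 to day 30, miR-145 was at 876, 1148, 1991, 1686, 1847, 4587, 5688 and 8748, against 3518 in naive. It was thus below naive through day 10 and above it from day 14 on. Its log2 level rose by 0.68 per doubling of the day (SE 0.11, limma adjusted p = 0.0117). Its partner miR-143 had no such slope called. miR-195 was at 3878, 2847 and 2059 on days 1, 3 and 5, at 1520 to 1812 on days 7 to 21 and at 1303 on day 30, against 1936 in naive, and its log2 level fell by 0.31 per doubling of the day (SE 0.06, limma adjusted p = 0.0298). It was above naive on the first 3 days sampled and below it on the later 5. miR-214 had a slope of 0.48 that did not pass the threshold (SE 0.11, limma adjusted p = 0.0726), and passed without day 1 (0.0336).

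The calls depended on single days. The limma adjusted p of miR-145 was 0.0506 without day 3, 0.0622 without day 21 and 0.0970 without day 30, and between 0.00499 and 0.0402 without any other day. That of miR-195 was under the threshold only without day 7 (0.0499) or day 10 (0.0289) and was 0.222 without day 1. The count was 0 without day 3, 21 or 30, with 7 or 8 miRs at an unadjusted p under 0.05, and 1 without day 5 or 14. Without day 1 the 2 called were miR-145 and miR-214, and miR-195 was not called.

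**Figure D4:**
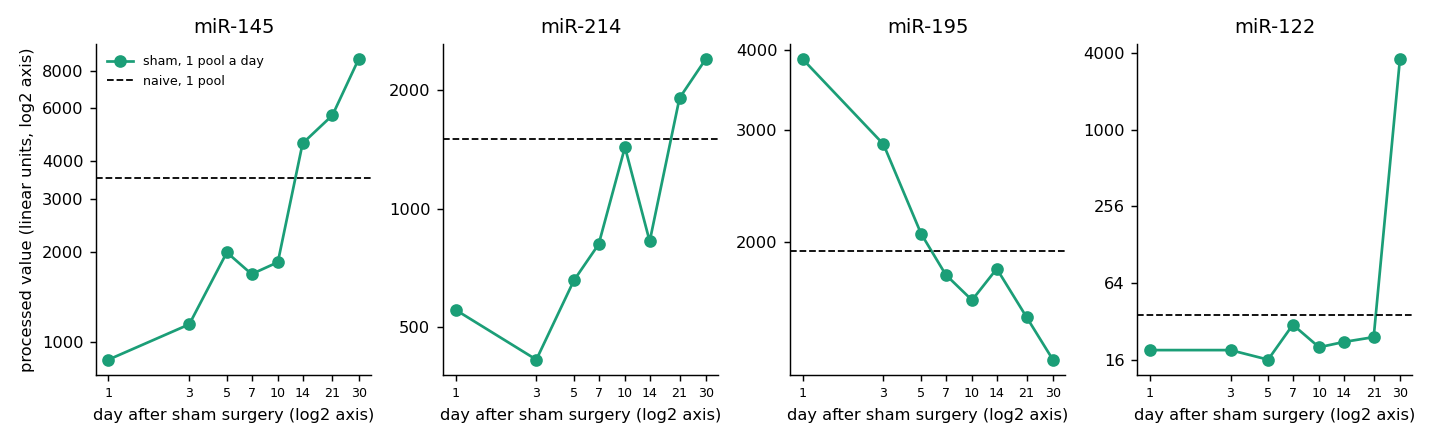
Processed value (log2 axis, with its own range in each panel) of miR-145, miR-214, miR-195 and miR-122 by day after sham surgery (points, 1 pool a day) with the naive pool as a dashed line. miR-145 crosses the naive level between day 10 and day 14, and miR-122 is at 16 to 30 on 7 days and at 3571 on day 30.

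Of the miRs of other cells, several were over the floor in sham and under it in naive. The erythroid list (miR-451, miR-144 and miR-486) summed to 151 in naive and to 195 to 1560 in sham, highest on day 30, with 0 of 3 over the floor in naive and 0 to 2 of 3 in sham. miR-451 was over the floor in 6 of 8 sham samples and at 60 in naive, and miR-486 in 4 of 8 and at 75 in naive. The 5 leukocyte miRs summed to 491 in naive and 444 to 861 in sham, with miR-155 over the floor in naive and in 7 of 8 sham samples, miR-150 in 5 of 8 sham samples, and to 1162 to 2568 in IRI. The leukocyte miRs miR-142-3p, miR-142-5p and miR-223 were at 28 or less in sham. The 5 muscle miRs summed to 123 in naive and 67 to 127 in sham. The liver and nerve list summed to 193 in naive and 142 to 3671 in sham, where miR-122, the miR of hepatocytes, was at 3571 on day 30, at 16 to 30 on the other days and at 36 in naive. The 6 spots of miR-122 on day 30 read between 1407 and 1789, and the IRI sample of the same array was at 18. No listed miR was at 0 in any of the 9 samples. The part of the erythroid and liver miRs of day 30 in its other ratios was not tested, and without day 30 the rule called 16 miRs higher and 9 lower, with all 22 among them.

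The ratio was correlated with base composition, as a description over miRs. Over the 65 miRs the share of G and C in the mature miR had a correlation of -0.50 (Spearman -0.46) with the mean log2 ratio, between -0.59 and -0.32 on single days, with the naive value and its array shared by all points. The median share was 43.5% in the 14 miRs called higher, 52.3% in the 8 called lower and 45.5% in the others. Of the 7 miRs under 40% of G and C, 2 were called higher and 0 lower, against 21.5% and 12.3% of the 65, with a median log2 ratio of 1.00 against 0.03. Of the 22 at 50% or more, 1 was called higher and 6 lower, against the same shares, with a median of -0.58. The correlation was -0.62 (64 miRs) from the scanner values with loess and quantile normalization and -0.53 with background subtracted. It was -0.46 for the ratio of IRI to naive, where both samples were read in Cy3, and 0.14 for the ratio of sham to IRI, which leaves naive out. The part of base composition in the ratios of single miRs was not tested.

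**Figure D5:**
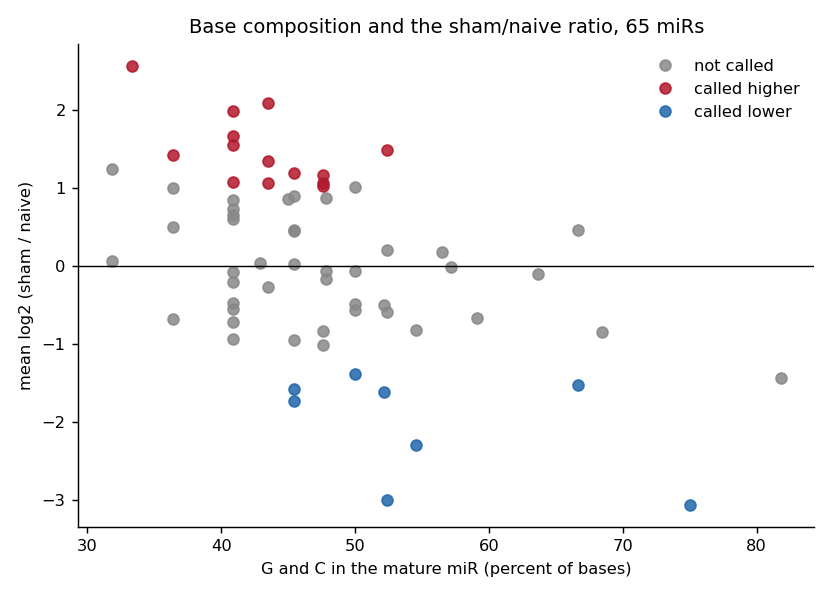
Share of G and C in the mature miR (x axis, percent of bases) against the mean log2 ratio of sham to naive (y axis) for the 65 miRs, coloured by call. The 8 miRs called lower have 45.5% or more and the 14 called higher 33.3% to 52.4%.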

How the data were processed

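The authors deposited, for each of 9 arrays, the mean scanner intensity of every spot, and, for the whole series, a table with a processed intensity, on a linear scale, of each miR in each sample. The sources used here do not give how the authors made the processed intensities. The processed values were used as deposited. The naive pool and each sham pool are single samples of 3 mice, so that days serve as the spread of sham and naive has no spread of its own. Groups and days were taken from the labels. The 4 scanner columns of the day 5 array carry names that match no label and were not used, so that day 5 enters through its processed values only.

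A miR was taken as measured in a sample at a processed value of 200 or more, the limit of the study's methods, where the mean of its spots was also more than 3 median absolute deviations above the median of the 250 empty spots. The log2 ratio of each sham day to naive was averaged over the 8 days. A miR was called higher or lower at a mean log2 ratio of 1 or more, or of -1 or less, with all 8 days on the same side. No test was run against naive. The error of naive is a jackknife SE over the 6 spots of a miR. Sham levels were fitted on log2(day) with limma 3.58.1 in R 4.3.3 (lmFit and eBayes on log2 values floored at 200, over miRs with a mean sham value of 200 or more), and p-values were adjusted by Benjamini-Hochberg, with calls under 0.05. The fit was tested on simulated data, with 90 miRs of the sham means and the same normal spread for every miR, without the floor. It called 19 of 20 slopes of 0.5 per doubling of the day and 0 of the others. The spread of the data differs between miRs, so this does not give the share of real slopes found. Distances and exact permutation tests were computed with numpy 2.4.6, pandas 2.3.3 and scipy 1.17.1 in Python 3.11.15, and plots with matplotlib 3.10.9.

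The miRs named are from those called, the 8 with the highest and the 8 with the lowest mean ratio, up to 4 bounds for miRs measured on 1 side only, 1 to 4 examples of each list, up to 3 slopes past the threshold in each direction, and the 4 miRs nearest to naive. Other miRs were named after their values were seen. The members and lists were chosen with earlier results of these data known. The alternatives were the scanner intensities with normexp (offset 50), loess and quantile normalization, the scanner intensities with the empty spots subtracted and median scaling (both without day 5), centring, quantile normalization of the processed values, floors of 100 and 400, no criterion on the empty spots, day 10 left out, each sham day left out, the median over days, a log2 ratio of 2, day in place of log2(day), and limma with an intensity trend and robust variance. Mature sequences and positions were taken from RefSeq (GRCm38.p6), and base composition from the target sequences in the deposited scanner files.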

Additional observations from a re-analysis of the deposited data

Results flagged for a closer look

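In 31 groups of 8 sham values tested for a sample far from the others, 5 held one. The threshold gives about 1 in 20 for independent, normally distributed values. These groups share the naive sample or hold linear values, some near background, so the count is not set against chance. The values were the log2 ratios to naive of the named miRs and the distances, and the processed values of 9 miRs that mark other cells. The log2 ratio of miR-185 was -0.028 on day 10, far above the other 7 days. The processed value of miR-451, an erythroid miR, was 882 on day 30. The processed value of miR-143, a smooth muscle miR, was 3649 on day 10. The processed value of miR-122, the hepatocyte miR, was 3571 on day 30, the only sham day on which it was over the floor. The processed value of miR-128, a miR known from nerve cells, was 403 on day 7, also the only sham day on which it was over the floor. The causes were not tested.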

How the results depend on the processing

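The naive sample is a single pool, read in another dye on the array with the lowest signal over background, and each sham day is 1 pool. The part of each of these in the ratios was not tested. No paired analysis was possible because naive has a single sample and so shares fewer than 2 replicate numbers with sham. At a log2 ratio of 2 in place of 1, 2 miRs were higher and 3 lower. From the scanner values with background subtracted 18 were lower, and at a floor of 400, 4 were lower. The median ratio over the measured miRs was -0.34 with background subtracted, 0.12 after quantile normalization of the processed values, 0.13 at a floor of 100 and 0.12 at a floor of 400, against 0.03. The correlation of the distance with log2(day) was -0.71 at a floor of 400 (exact permutation p = 0.0494, unadjusted, n = 8). Leaving out 1 sham day at a time gave correlations from -0.78 (without day 1, exact permutation p = 0.0401, unadjusted, n = 7) to -0.37, counts of 12 to 16 higher and 8 to 10 lower, 65 to 67 measured miRs, medians from -0.02 to 0.05, and 0 to 2 slopes. The count of slopes was 1 from the scanner values with background subtracted and 1 with an intensity trend and robust variance. The causes of these changes were not tested. Under the 4 other scalings, 60 of 259 ratios of single miRs moved by more than their SD over the sham days. Of the 22 called miRs, 0 changed sign in a scaling that gave a value. They were chosen for ratios of at least 1 in size, which leaves less room for a change of sign. For the slopes, the criterion on the empty spots does not enter, and centring on naive could not be applied.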

Other observations

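Several miRs outside the ratios were high on single sham days. miR-467b* was at 1878 on day 5, at 37 to 329 on the other sham days and at 99 in naive. miR-467a* was at 1179 on day 5, at 18 to 121 on the other days and at 66 in naive. miR-466g was at 740 on day 1 and 333 on day 5, against 66 in naive. miR-329 was at 330 on day 5, at 13 to 25 on the other days and at 40 in naive. miR-181a-1* was at 239 on day 10, at 7 to 21 on the other days and at 12 in naive. With 1 pool a day, none of these has a replicate.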
